A study of Mus musculus with 23 samples.

Results

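Immune checkpoints are pairs of receptors on T cells and ligands on neighboring cells, and here 10 genes of such pairs were followed through 23 mouse RNA sequencing (RNAseq) libraries. They were taken by name from a table of 24475 genes: the inhibitory receptors Pdcd1 (PD-1), Ctla4, Lag3, Havcr2 (TIM-3) and Tigit, the costimulatory receptor Cd28, the PD-1 ligands Cd274 (PD-L1) and Pdcd1lg2 (PD-L2), and the ligands Cd80 and Cd86, which CD28 and CTLA-4 share. All 10 were in the table. The thymus group consisted of 6 libraries of normal C57BL/6 thymus. The other 17 libraries came from spleens of BALB/c Rag2-/-Il2rg-/- mice, which have no T, B or natural killer (NK) cells of their own, that had received a newborn thymus lobe under the kidney capsule and later fell ill with T-cell acute lymphoblastic leukemia (T-ALL). The donor thymus was wild type in 14 of these mice (WT T-ALL; a congenic line on the C57BL/6 background) and lacked Notch3 in 3 (Notch3 KO T-ALL). The knockout allele carries a β-galactosidase gene placed in frame in the first coding exon of Notch3. On the log2 scale Notch3 measured between 2.59 and 3.74 in the knockout tumors, against 3.17 to 5.78 for WT T-ALL. The knockout values are at the level of thymus with intact Notch3 (2.62 to 4.29). Whether this signal is RNA left from the allele or RNA of host cells in the spleen was not tested. Recipients were 6 to 8 weeks old at grafting by the study's methods, and the sample labels give no age. Tissue, host genotype and strain all part with the groups, so none of them can be told apart from leukemia in a comparison with thymus. Each T-ALL library is an individual case, and the tumors are named by the number in their label.

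T cells need a signal through CD28 beside that of the antigen receptor to become fully active. CTLA-4 is induced on activated T cells and is kept on regulatory T cells, where it outcompetes CD28 for CD80 and CD86, while PD-1, LAG-3, TIM-3 and TIGIT accumulate under persistent stimulation and dampen the response when bound by their ligands. PD-L1 is made by many cell types, largely under interferon, whereas PD-L2, CD80 and CD86 belong mostly to dendritic cells and macrophages.

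All values are log2(scaled RPKM + 1) as deposited, where RPKM is a read density per transcript length and library size and was scaled so that the 75th percentile of every library was 10. Because of the offset of 1, a difference understates the fold change of a weakly expressed gene. Table values carry no read counts, so no counting error is given. The 10 T cell marker genes were measured in all libraries, with a summed scaled RPKM that lay between 3230 and 4090 for thymus, between 1640 and 3650 for WT T-ALL and between 2220 and 2800 for Notch3 KO T-ALL. Of the thymic epithelium markers, the defining genes Foxn1, Psmb11 and Aire were below a scaled RPKM of 1 in every library, thymus included. Of the 10 genes of that list 5 reached 1 in thymus, and their sum lay between 73.9 and 111 for thymus, between 6.68 and 52.6 for WT T-ALL and between 11.6 and 96.1 for Notch3 KO T-ALL. Epcam (-1.72) and Ctsl (-2.15) of the list were lower in WT T-ALL than in thymus, and their part in the differences from thymus was not tested. B cell markers summed to no more than 6.44 in any T-ALL library, with Cd79a and Ms4a1 below 1 in all of them. Neutrophil markers summed to 58.5–536 for thymus, 642–85000 for WT T-ALL and 205–7590 for Notch3 KO T-ALL, with the highest value in WT T-ALL 110. A split that no label names also ran through the series: 9 libraries (thymus 5 and 6, WT T-ALL 3, 4, 5 and 7, and the 3 Notch3 KO T-ALL) had Sco2 at 2.30 to 3.92, and the other 14 had it at 0 to 1.00. These are called set A and set B. Thymus controls 1 and 3, 2 and 4, and 5 and 6 were each other's nearest library, and whether these pairs are repeats of the same animals is not stated.

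Cd28 had the highest mean of the 10 genes in every group. In 3 single tumors Ctla4 was above it, at a scaled RPKM of 49.4 against 35.6 in Notch3 KO T-ALL 2, 16.7 against 15.7 in WT T-ALL 7 and 37.3 against 37.2 in WT T-ALL 128. In thymus it had a scaled RPKM of 88.9 ± 11.7 (SD, n = 6). Pdcd1 followed at 7.45 ± 2.24, Cd274 at 5.82 ± 1.44, Ctla4 at 4.57 ± 0.870 and Lag3 at 4.09 ± 1.26. Between neighbors in this order the ranges of mean ± SD overlapped. Those of Cd86 (1.60 ± 0.637) and Tigit (1.33 ± 0.218) also overlapped, and Pdcd1lg2, Havcr2 and Cd80 stayed below 1 in all 6 thymus controls. In WT T-ALL Cd28 was again first at 41.5 ± 14.5 (n = 14). Ctla4 had the next mean, 13.4 ± 13.0, but its median of 8.59 was below that of Pdcd1 at 10.5, and its spread took in that of Pdcd1. All 10 genes passed the filter on low values. Cd80, Havcr2 and Pdcd1lg2 passed it only through T-ALL libraries, of which 3, 6 and 5 reached a scaled RPKM of 1.

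**Figure D1:**
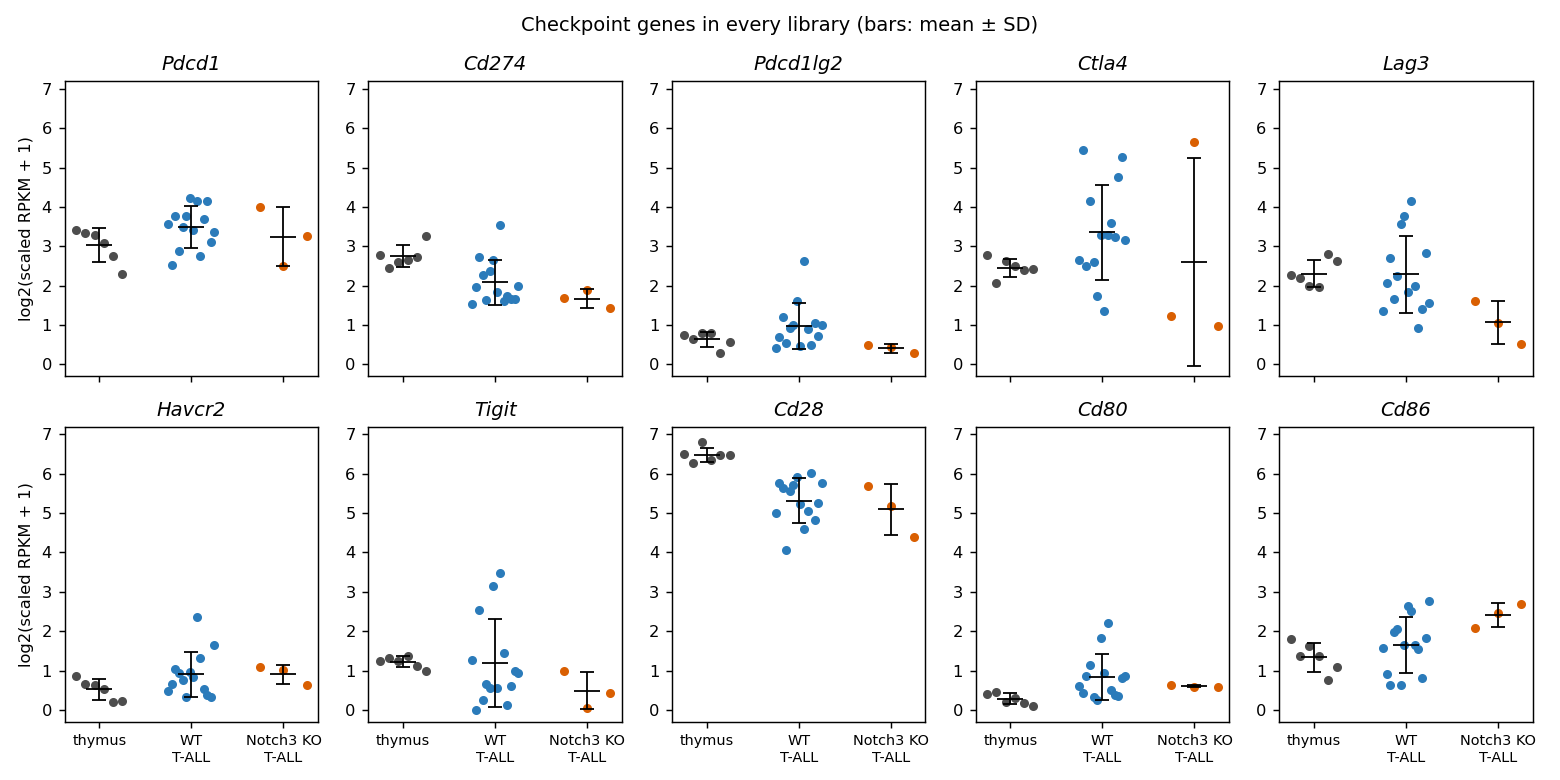
Level of each checkpoint gene in every library, on the vertical axis as log2(scaled RPKM + 1), for 6 thymus controls, 14 WT T-ALL and 3 Notch3 KO T-ALL; points are libraries and bars are the mean ± SD. All T-ALL points of Cd28 lie below all thymus points, and the points of Ctla4, Lag3 and Tigit spread far more in WT T-ALL than in thymus.

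The promoters of Cd274, Pdcd1lg2, Tigit and Cd80 are shown first, so that the letters around each start site can be seen beside the values. Pairs of these 4 genes had an adjusted p under 0.05 by r among the tumors but not by rank, and their r lay between -0.22 and 0.62 once the 2 farthest tumors were left out. RefSeq promoters on GRCm38.p6 (250 bases before to 50 bases after the start site) were at hand for 7 of the 10 genes. Those printed are chr19:29367188-29367487, plus strand, for Cd274; chr19:29410669-29410968, plus strand, for Pdcd1lg2; chr16:43664135-43664434, minus strand, for Tigit; and chr16:38458683-38458982, plus strand, for Cd80. All are written 5′ to 3′ on the strand of the gene, and capitals mark matches to the motifs searched.
Cd274: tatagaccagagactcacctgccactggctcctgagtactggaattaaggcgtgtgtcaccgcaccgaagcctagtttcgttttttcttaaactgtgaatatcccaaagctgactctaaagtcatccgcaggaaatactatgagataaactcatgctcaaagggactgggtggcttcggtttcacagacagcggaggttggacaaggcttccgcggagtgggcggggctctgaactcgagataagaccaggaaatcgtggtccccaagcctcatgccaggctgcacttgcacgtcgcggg
Pdcd1lg2: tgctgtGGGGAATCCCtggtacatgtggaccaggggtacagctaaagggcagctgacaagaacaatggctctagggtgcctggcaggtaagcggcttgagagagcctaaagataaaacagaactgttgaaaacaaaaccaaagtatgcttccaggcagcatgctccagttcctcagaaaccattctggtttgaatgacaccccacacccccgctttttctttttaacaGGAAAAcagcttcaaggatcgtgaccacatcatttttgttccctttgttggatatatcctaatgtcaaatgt
Tigit: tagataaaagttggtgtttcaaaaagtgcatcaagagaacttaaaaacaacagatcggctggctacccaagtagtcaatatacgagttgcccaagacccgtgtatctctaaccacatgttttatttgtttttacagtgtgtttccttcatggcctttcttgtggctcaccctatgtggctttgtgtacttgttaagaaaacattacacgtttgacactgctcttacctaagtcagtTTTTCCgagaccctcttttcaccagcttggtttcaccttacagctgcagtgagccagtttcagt
Cd80: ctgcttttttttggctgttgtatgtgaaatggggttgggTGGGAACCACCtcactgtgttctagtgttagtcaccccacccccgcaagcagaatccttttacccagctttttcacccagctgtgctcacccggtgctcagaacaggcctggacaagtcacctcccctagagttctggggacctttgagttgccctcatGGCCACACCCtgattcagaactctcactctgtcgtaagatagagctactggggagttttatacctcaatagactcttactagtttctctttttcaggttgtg
Each promoter was searched on both strands for a STAT site (GAS, TTCNNNGAA, in 8.30% of 32851 RefSeq promoters), an interferon-stimulated response element (ISRE, GAAA, any 2 bases and GAAA, 3.44%), an NF-kB site (GGG, any 5 bases and CC, 50.8%), the site of the Notch partner RBPJ (TGGGAA, 25.6%) and an NFAT site (GGAAAA, 23.4%). Pdcd1lg2 held GGGGAATCCC, which matches the NF-kB motif on both strands, from base -244, counting from the start site, and an NFAT match from -22. Tigit held an NFAT match from -14. Cd80 held NF-kB matches from -210 and -52, and the first of them overlapped its RBPJ match from -211. The window of Cd274 held none of the 5 motifs, nor did those of Pdcd1 and Havcr2, and Ctla4 held an NFAT match from -145. Motifs as short as NF-kB and NFAT occur in a large share of all promoters, and a match is a description of the letters.

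Cd274 with Pdcd1lg2 and Cd28 with Ctla4 lie side by side in the genome. Cd274 (chr19:29367455-29388095, plus strand) and Pdcd1lg2 (chr19:29410919-29471161, plus strand) are separated by 22.8 kb without another coding gene. Cd28 (chr1:60716800-60773359, plus strand) and Ctla4 (chr1:60887000-60915832, plus strand) are 113.6 kb apart, likewise with 0 coding genes between them. Cd274 and Pdcd1lg2 each overlap an annotated antisense gene, and Ctla4 a ribosomal protein pseudogene. The libraries were stranded, but whether counting used the strand is not given in the sources used here, so values of these 3 genes may include reads of the overlapping annotation.

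WT T-ALL was set against thymus to see which checkpoint genes of a leukemic spleen departed from normal T cell progenitors. Cd28 and Cd274 fell, 2 of the 10 genes, with an adjusted p under 0.05 by limma, in a comparison where 51.6% of the 11919 genes tested passed the same threshold (22.3% lower and 29.3% higher). Cd80 also had an adjusted p under 0.05, but it entered the test only through 3 tumors in which it was high, so it is described here and not counted as a call. The median difference over the 10 genes was 0.33, against 0.08 over all genes tested, but over the 7 genes that did not need T-ALL libraries to pass the filter on low values it was -0.02. In a spleen that holds several cell types, fewer cells of a type and less RNA per cell cannot be told apart.

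Cd28, the costimulatory receptor, measured 6.50, 6.28, 6.80, 6.36, 6.48 and 6.47 in thymus controls 1 to 6. In WT T-ALL it ran from 4.06 in T-ALL 7 through a median of 5.41 to 6.02 in T-ALL 120. All 14 tumors therefore lay below all 6 controls, a separation in this direction that 6.64% of all genes showed. The difference was -1.16 (SE 0.23, limma adjusted p = 0.000271), a fall to 0.446 of the thymus level on the scale with the offset. T-ALL 7, the lowest tumor, had 44.47% of its summed signal in mitochondrial genes, against 6.64 to 22.51% in the other libraries, and the difference without it was -1.07. The fall was -1.35 (adjusted p = 0.0792) within set A, where 4 tumors stood against 2 controls, and it kept an adjusted p under 0.05 in the other alternatives run. Of the 10 T cell markers, 5 were lower and 0 higher, with a median difference of -0.38, and Cd5 (-1.86) and Cd247 (-1.53) had larger differences than Cd28.

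Cd274, which encodes PD-L1, measured 2.78, 2.46, 2.59, 2.66, 2.72 and 3.26 in thymus. In WT T-ALL its lowest value was 1.54, its median 1.91 and its highest 3.53. T-ALL 110 was the only tumor above all controls, T-ALL 5 and 48 lay among them at 2.74 and 2.65, and the other 11 tumors were below all of them. The difference was -0.65 (SE 0.23, limma adjusted p = 0.0211). Without thymus 6, the control with the highest value, it was -0.55 (adjusted p = 0.0691), and within set B, where 10 tumors stood against 4 controls, it was -0.55 (adjusted p = 0.146) and within set A -0.86 (adjusted p = 0.15). With the thymus pairs averaged it was -0.65 (adjusted p = 0.117).

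Pdcd1lg2, the other PD-1 ligand, was near the floor in thymus, between 0.29 and 0.80. In WT T-ALL it ran from 0.41 through a median of 0.90 to 2.64, and 8 of 14 tumors lay above all controls. The difference of 0.34 (SE 0.23, limma adjusted p = 0.224) did not pass the test. Its 95% interval was -0.14 to 0.81.

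Cd80 measured 0.41, 0.45, 0.21, 0.31, 0.18 and 0.10 in thymus, all under a scaled RPKM of 1. In WT T-ALL it ran from 0.25 through a median of 0.71 to 2.22, with 9 of 14 tumors above all controls and T-ALL 110 and 48 (1.84) the highest. The difference was 0.55 (SE 0.23, limma adjusted p = 0.0459). This p was above the threshold when any of the thymus controls 1 to 6, or any of WT T-ALL 5, 108, 128 and 202, was left out (differences 0.51 to 0.58, adjusted p 0.0539 to 0.0923). Cd80 did not pass the filter without T-ALL 7, 48 or 110, the 3 libraries in which it reached a scaled RPKM of 1. It was above the threshold in 15 of 23 alternatives, and the difference was 0.31 (adjusted p = 0.233) after quantile normalization.

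Cd86, the other ligand of CD28 and CTLA-4, measured 1.80, 1.37, 1.62, 1.37, 0.77 and 1.10 in thymus. In WT T-ALL it ran from 0.64 through a median of 1.65 to 2.77, and 6 of 14 tumors lay above all controls. The difference was 0.32 (SE 0.29, limma adjusted p = 0.359). The groups overlapped broadly.

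The 5 inhibitory receptors did not pass the test in WT T-ALL. Pdcd1 measured 3.42, 3.35, 3.28, 3.08, 2.75 and 2.30 in thymus and ran from 2.52 through a median of 3.53 to 4.24 in WT T-ALL, with 8 of 14 tumors above all controls. Its difference was 0.46 (SE 0.25, 95% interval -0.05 to 0.97, adjusted p = 0.118). The thymus controls of set A (5 and 6) were the lowest. Havcr2, the receptor TIM-3, lay between 0.19 and 0.86 in thymus and between 0.32 and 2.37 in WT T-ALL, and its difference was 0.37 (SE 0.23, adjusted p = 0.182). Lag3 and Tigit had means close to those of thymus, with differences of -0.02 (95% interval -0.80 to 0.76, adjusted p = 0.971) and -0.03 (-0.88 to 0.82, adjusted p = 0.956). For Ctla4 the difference was 0.90 (SE 0.59, adjusted p = 0.201), and its 95% interval of -0.31 to 2.11 was the widest of the 10.

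What set Ctla4, Tigit and Lag3 apart was their range from tumor to tumor. Ctla4 measured 2.77, 2.08, 2.62, 2.49, 2.40 and 2.42 in thymus. In WT T-ALL it ran from 1.36 in T-ALL 108 through a median of 3.26 to 5.46 in T-ALL 4, followed by T-ALL 128 (5.26), 126 (4.76) and 7 (4.15). These 4 tumors and 5 others lay above all controls, and T-ALL 36 and 108 lay below all of them. In scaled RPKM the highest tumor was 27.5 times the lowest. The SD of Ctla4 was 0.23 in thymus and 1.21 in WT T-ALL, larger than that of 96.8% of the genes tested. Foxp3, which defines the regulatory T cells that normally carry CTLA-4, was below a scaled RPKM of 1 in all 17 T-ALL libraries, while the other 7 of 8 genes of the regulatory T cell list reached 1 in both T-ALL groups. The list summed to between 71.6 and 107 for thymus, between 61.2 and 390 for WT T-ALL, highest in T-ALL 36, and between 47.4 and 63.5 for Notch3 KO T-ALL. Of its 7 genes tested in WT T-ALL against thymus, 2 were higher, Ikzf2 (0.79) and Nrp1 (0.81). The 2 lower genes, Ccr8 (-1.81) and Tnfrsf18 (-1.47), had larger differences. The median of the list was 0.09, and over all genes 29.3% were higher and 22.3% lower. The part of such cells in the Ctla4 values was not tested.

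Tigit measured 1.25, 1.32, 1.24, 1.37, 1.12 and 1.00 in thymus. In WT T-ALL it was listed at 0 in T-ALL 4, had a median of 0.79 and reached 3.47 in T-ALL 110, 3.16 in T-ALL 48 and 2.55 in T-ALL 5. Together with T-ALL 111 these were the 4 tumors above all controls, and 8 tumors were below all of them. Its SD was 0.14 among the controls and 1.11 among the tumors, the latter larger than that of 95.6% of genes. Lag3 measured 2.27, 2.19, 2.00, 1.97, 2.81 and 2.64 in thymus and ran from 0.93 in T-ALL 120 through a median of 2.04 to 4.14 in T-ALL 110, an 18.3-fold range in scaled RPKM. T-ALL 110, 48, 36 and 128 were above all controls. The median gene had an SD of 0.23 in thymus and 0.41 in WT T-ALL, so a larger spread among tumors was shared by most genes.

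**Figure D2:**
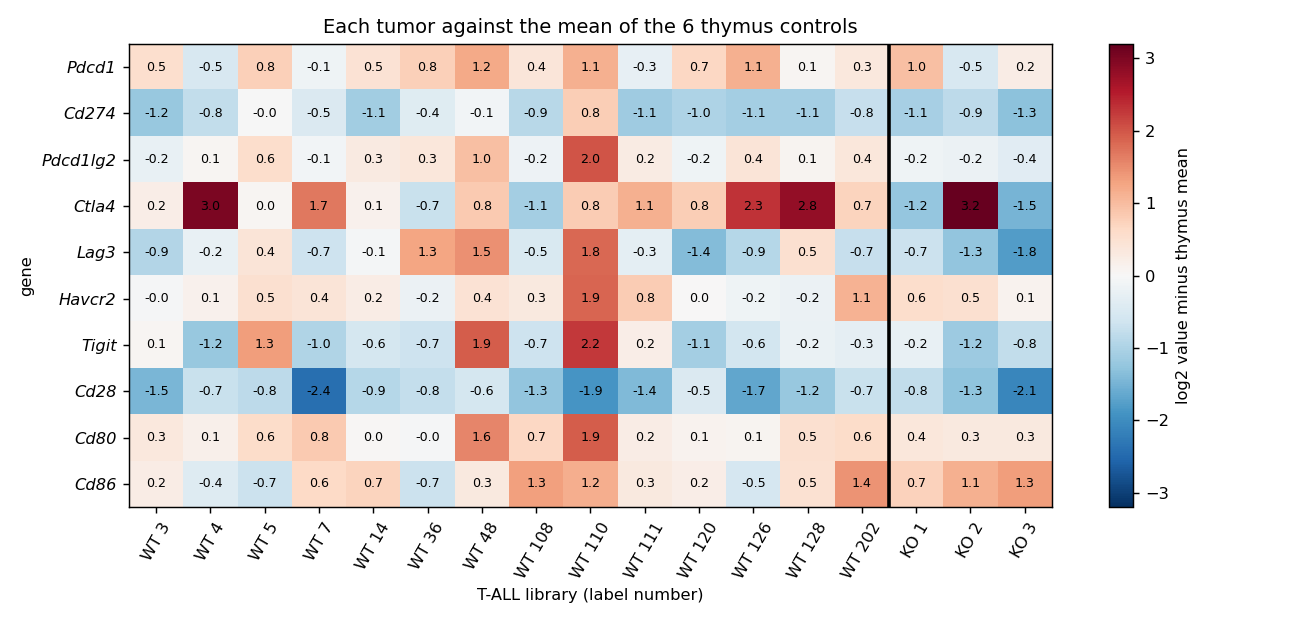
Difference of each tumor from the mean of the 6 thymus controls (color and printed number, log2 scale) for the 10 genes (rows) in 14 WT T-ALL and 3 Notch3 KO T-ALL (columns, right of the black line). The row of Cd28 is below 0 throughout, the row of Ctla4 runs from blue to the deepest reds, and the columns of WT 48 and WT 110 are red in most rows.

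Read tumor by tumor, the 10 genes formed different profiles. T-ALL 110 had 9 genes above all thymus controls and 1, Cd28, below, where 35.3% of all genes tested were above and 34.4% below in the same library. T-ALL 48 had 7 above (Pdcd1, Pdcd1lg2, Ctla4, Lag3, Havcr2, Tigit and Cd80) and again Cd28 alone below, beside 40.9% and 28.9% of all genes. T-ALL 5, 111 and 202 had 5 above, and T-ALL 36 and 108 had the most below among WT T-ALL, with 5 each. Cd80, Havcr2 and Pdcd1lg2 had passed the filter on low values only through T-ALL libraries, so the counts above are not read against the shares of all genes. Of the other 7 genes, 6 were above all controls in T-ALL 110 and 4 in T-ALL 48. Over the 14 tumors 34.1 to 45.9% of all genes lay above all controls and 28.3 to 34.4% below. T-ALL 110 was also the library with the highest sums of the neutrophil (85000) and NK cell (1900) lists, although the NK receptors of the latter were below a scaled RPKM of 1 in all WT T-ALL and the genes that made up its sum are shared with cytotoxic T cells. Its dendritic cell sum (24.3) was the highest among T-ALL libraries only, as thymus had 18.2 to 58.8. Its T cell marker sum (1640) was the lowest of all libraries. The mean log2 value of its macrophage markers (4.294) was the highest, although T-ALL 108 had the higher macrophage sum (302 against 275). The part of these cell types in its checkpoint values was not tested. Without T-ALL 48 and 110 Cd80 no longer passed the filter on low values.

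T-ALL 5 and T-ALL 3 are the cases whose passaged cells the study used for PD-1 blockade. Pdcd1 itself was at 3.78 in T-ALL 5 and 3.56 in T-ALL 3, both above the highest thymus control. Cd274 was 2.74 in T-ALL 5, within the range of thymus, and 1.54 in T-ALL 3, the lowest of the 14 tumors. Tigit was 2.55 in T-ALL 5 and 1.27 in T-ALL 3, and Pdcd1lg2 was 1.20 and 0.41. Cd86 went the other way, at 0.64 in T-ALL 5 and 1.58 in T-ALL 3. Each case is 1 library of the primary spleen, so these differences have no replicate check.

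Over the 14 WT T-ALL, Cd86 varied with the macrophage markers. The macrophage score (mean log2 value of 10 marker genes) ran from 1.222 in T-ALL 36, where Cd86 was 0.64, to 4.294 in T-ALL 110, where it was 2.51. Pearson's r was 0.89 (permutation p = 2e-05, adjusted p = 0.0014 over 70 pairs of gene and marker score) and Spearman's rho was 0.84 (permutation p = 0.00033, adjusted p = 0.0231). Leaving out T-ALL 110 and 108, whose scores were farthest from the median, left r at 0.86, and r was 0.89 within the 10 tumors of set B. Set A holds only 4 WT T-ALL, too few for a value. With the dendritic cell score r was 0.82 (permutation p = 0.00025, adjusted p = 0.00875) and rho 0.72 (permutation p = 0.00492, adjusted p = 0.172), and r was 0.71 without T-ALL 5 and 202. Summed macrophage markers lay between 8.92 and 54.0 for thymus, between 18.0 and 302 for WT T-ALL and between 208 and 303 for Notch3 KO T-ALL.

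**Figure D3:**
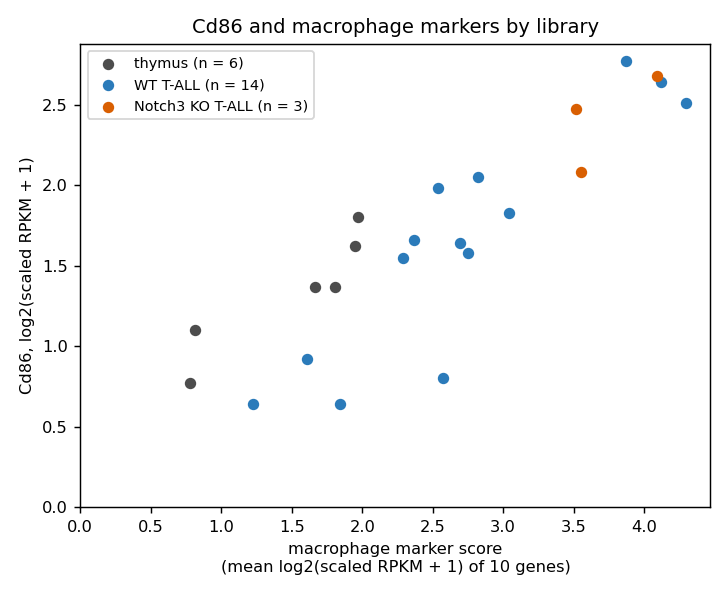
Cd86 (vertical axis, log2(scaled RPKM + 1)) against the macrophage marker score (horizontal axis, mean log2 value of 10 genes) in the 23 libraries, colored by group. Among the 14 WT T-ALL r was 0.89, and the 3 Notch3 KO T-ALL lie at the upper right with the WT T-ALL that have the highest scores.

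The other pairs with an adjusted p under 0.05 all involved the NK cell list, of which 5 genes (Gzma, Gzmb, Prf1, Eomes and Nkg7) reached a scaled RPKM of 1 in WT T-ALL, while the NK receptors Ncr1, Klrb1c, Klrc1, Klra8 and Klre1 were below 1 in all 14. The genes that were measured are also used by cytotoxic T cells. With this score r was 0.81 for Cd274 (permutation p = 0.0012, adjusted p = 0.0164), 0.84 for Pdcd1lg2 (p = 0.00048, adjusted 0.0112), 0.78 for Tigit (p = 0.00141, adjusted 0.0164) and 0.80 for Cd80 (p = 0.00115, adjusted 0.0164), each over n = 14 by permutation. None of the 4 passed by rank, with rho of 0.60, 0.67, 0.54 and 0.58 (permutation p = 0.0273, 0.0102, 0.049 and 0.0339; adjusted p = 0.318, 0.228, 0.361 and 0.328). Without T-ALL 110 and 5 the values of r were 0.48, 0.63, 0.51 and 0.66, so part of the relation rested on these tumors. No pair with the T cell score passed, but r there depended on T-ALL 110. Without it r rose from -0.03 to 0.79 for Pdcd1lg2 and from 0.24 to 0.71 for Lag3. It also rose from 0.14 to 0.63 for Tigit and from 0.30 to 0.60 for Pdcd1. For the other genes r without T-ALL 110 was 0.47 (Cd28), 0.40 (Cd274), 0.12 (Cd80), -0.05 (Ctla4), -0.16 (Havcr2) and -0.45 (Cd86). These values were not tested.

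Among themselves the 10 genes gave 45 pairs, of which 11 had an adjusted p under 0.05 by r, all positive, and 0 by both r and rho. The adjacent PD-1 ligands Cd274 and Pdcd1lg2 had r = 0.84 (permutation p = 0.00151, adjusted p = 0.0206) and rho = 0.61 (permutation p = 0.0238, adjusted p = 0.279), and r was 0.55 without T-ALL 110 and 5. Pdcd1lg2 and Tigit had r = 0.82 (permutation p = 0.00042, adjusted p = 0.0128) and rho = 0.59 (permutation p = 0.031, adjusted p = 0.279), and r was 0.49 without T-ALL 110 and 48. Tigit and Cd80 had r = 0.79 (permutation p = 0.00242, adjusted p = 0.0206) and rho = 0.52 (permutation p = 0.0604, adjusted p = 0.338), and r was 0.26 without the same 2 tumors. For Pdcd1lg2 and Cd80 the sign itself turned, from r = 0.74 (permutation p = 0.00827, adjusted p = 0.0413; rho = 0.22, permutation p = 0.454, adjusted p = 0.855) to -0.22 without T-ALL 110 and 48. Without the 2 farthest tumors r of the 11 pairs ran from -0.22 to 0.64, and it was best kept for Cd274 with Lag3 (0.75 to 0.64) and with Cd80 (0.79 to 0.62). Neither Pdcd1, Ctla4, Cd28 nor Cd86 was in any of the 11 pairs.

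As a description, the genes whose profile over the 14 WT T-ALL was most like that of each checkpoint gene were ranked by r among all genes tested. For Lag3 they were Syap1 (r = 0.88), Igtp (0.87) and Gbp2 (0.87), the last 2 being interferon-inducible GTPases. For Tigit they were Gpr55 (0.93), Ttc39b (0.93) and Tgtp1 (0.91), the last also an interferon-inducible GTPase, and for Pdcd1lg2 they were Cxcl9 (0.91), an interferon-induced chemokine, Gpm6b (0.90) and Cnih4 (0.90). For Cd274 they were Msn (0.93), the cytoskeletal linker moesin, Irf2 (0.89), a transcription factor of the interferon system, and Tnip3 (0.88). Without T-ALL 110 the value fell most among these for Cxcl9, to 0.70. Cd86 had Kctd12b (0.94), the lysosomal protease gene Ctsb (0.92) and the cytokine gene Il18 (0.92), and Havcr2 had P2ry14 (0.90), Cxcl16 (0.90) and Anpep (0.89). Cd80 had Il18r1 (0.93), a chain of the IL-18 receptor, Art2a-ps (0.92) and Bhlhe40 (0.92). The nearest genes were Moap1 (0.90), Socs5 (0.83) and Milr1 (0.83) for Pdcd1, Wnt8b (0.88), Sema4d (0.79) and Prkcsh (0.77) for Ctla4, and Mlh3 (0.92), Mettl4 (0.90) and Eri1 (0.88) for Cd28.

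For the tumors from a Notch3 KO thymus, the comparison with the same 6 thymus controls asks whether the pattern holds when the donor lacks Notch3. Cd28 and Cd274 fell and Cd86 rose, 3 of 10 genes, in a comparison where 37.5% of genes passed the test (16.3% lower and 21.2% higher). The median difference was -0.04 over the 10 genes and -0.73 over the same 7, against 0.08 over all genes. Values of 6 genes (Cd274, Lag3, Tigit, Cd28, Cd80 and Cd86) did not overlap between the groups, which was so for 42.3% of all genes. The comparison shares its controls with that of WT T-ALL. Of the 10 T cell markers, 3 were lower and 0 higher in Notch3 KO T-ALL (median -0.44). Hemoglobin genes held 4.051 to 15.522% of the summed signal in Notch3 KO T-ALL, against 0.009 to 0.117% in thymus. The part of cell composition in these differences was not tested.

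Cd28 measured 5.70, 5.19 and 4.40 in Notch3 KO T-ALL 1, 2 and 3, all below thymus. The difference was -1.38 (SE 0.34, limma adjusted p = 0.00278). Cd274 measured 1.69, 1.90 and 1.43, below all controls, with a difference of -1.07 (SE 0.33, adjusted p = 0.0144). Without Notch3 KO T-ALL 3 the difference of Cd274 was -0.95 (adjusted p = 0.0786), and with the thymus pairs averaged it was -1.07 (adjusted p = 0.0577).

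Cd86 measured 2.08, 2.47 and 2.68, above all 6 controls, and the difference was 1.07 (SE 0.41, limma adjusted p = 0.0443). The call was lost without any of thymus 2, 4, 5 and 6 or any of the 3 Notch3 KO T-ALL (differences 0.93 to 1.23, adjusted p 0.0595 to 0.166), and in 13 of 18 alternatives in all. Of the 10 macrophage markers, 9 had risen against thymus in these tumors and 0 had fallen, with a median difference of 2.51. The same list gave 8 higher and 0 lower in WT T-ALL (median 1.17), where Cd86 did not pass the test (0.32, limma adjusted p = 0.359). Over all genes the shares of higher genes were 21.2% for Notch3 KO T-ALL and 29.3% for WT T-ALL. Mertk and Marco, 2 of the 9, also count among the 8. They were below a scaled RPKM of 1 in all controls and passed the filter on low values only through T-ALL libraries, so they are no support. The part of macrophages in the Cd86 difference was not tested.

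Lag3 measured 1.62, 1.05 and 0.53, all below the lowest thymus control at 1.97. Its difference of -1.25 (SE 0.55, limma adjusted p = 0.0748) did not pass the test, although the exact permutation test over all genes gave an adjusted p of 0.031 with the smallest p that 84 splits allow (0.0119). Tigit measured 0.99, 0.06 and 0.42, and its difference was -0.73 (SE 0.60, adjusted p = 0.352, exact permutation adjusted p = 0.031). Cd80 measured 0.64, 0.58 and 0.58, above all controls, with a difference of 0.32 (SE 0.33, adjusted p = 0.454). Ctla4 again split the tumors, at 5.66 in Notch3 KO T-ALL 2 and at 1.22 and 0.97 in the other 2, below all controls. Its difference was 0.15 (SE 0.85, adjusted p = 0.903), and without Notch3 KO T-ALL 2 it was -1.37. The differences of Pdcd1, Pdcd1lg2 and Havcr2 were 0.22, -0.23 and 0.38, with adjusted p of 0.648, 0.611 and 0.382 by limma.

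**Figure D4:**
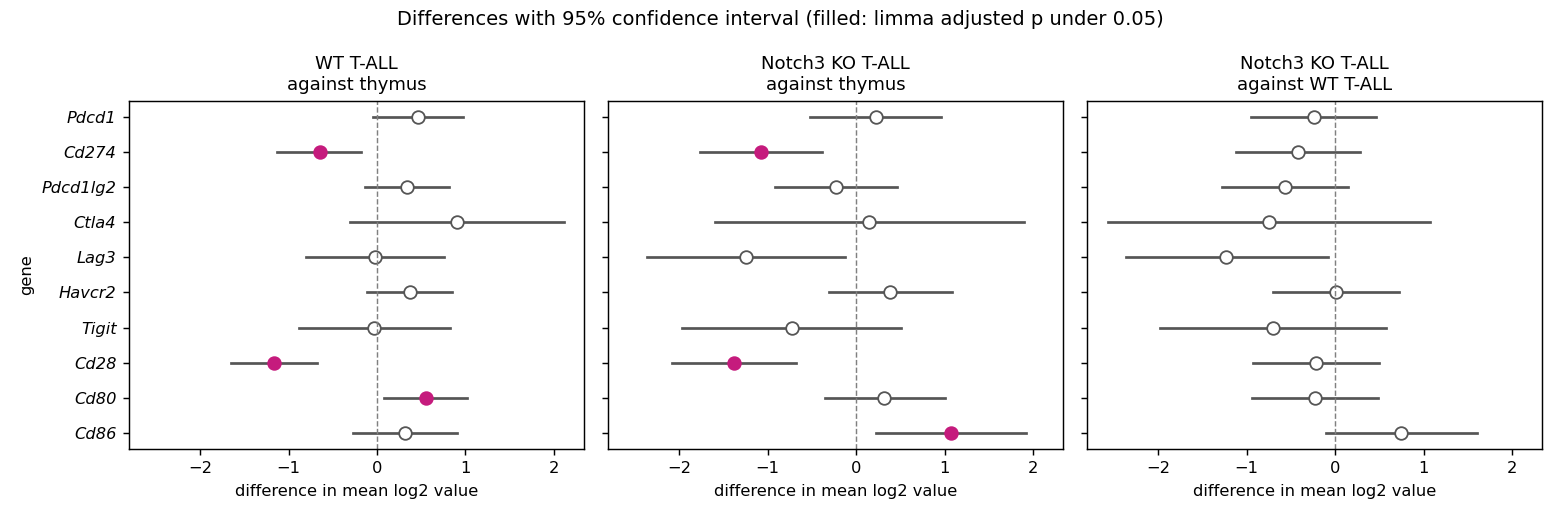
Difference in mean log2 value (horizontal axis) with its 95% confidence interval for the 10 genes in the 3 comparisons; filled points have a limma adjusted p under 0.05. Cd28 and Cd274 are filled on the negative side in both comparisons with thymus, Cd86 (1.07, Notch3 KO T-ALL) and Cd80 (0.55, WT T-ALL, in the test only through 3 high tumors) are filled on the positive side, and no point is filled between the T-ALL groups.

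Between Notch3 KO T-ALL and WT T-ALL, the comparison that bears on the genotype of the donor thymus, 0 of 10 genes passed the test by limma, where 0.617% of 11677 genes did. At an unadjusted p under 0.05 the count was 1 by limma and 0 by the exact permutation test. The gene was Lag3, with a difference of -1.23 (SE 0.55, 95% interval -2.37 to -0.08, limma p = 0.0371, adjusted p = 0.521), and the 3 values of 0.53 to 1.62 overlapped the lower WT T-ALL. Cd86 had a difference of 0.75 (95% interval -0.10 to 1.60, adjusted p = 0.686). The intervals of the other 8 genes were -0.95 to 0.46 for Pdcd1, -1.12 to 0.28 for Cd274, -1.28 to 0.14 for Pdcd1lg2, -2.57 to 1.07 for Ctla4, -0.70 to 0.72 for Havcr2, -1.98 to 0.58 for Tigit, -0.93 to 0.49 for Cd28 and -0.94 to 0.48 for Cd80. All 3 Notch3 KO T-ALL belong to set A and only 4 of the 14 WT T-ALL do. Within set A, and with the set as a term of the fit, the count was again 0.

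Other genes of the same pathways were taken as lists. Of the costimulatory receptors beside Cd28, 8 of 11 tested were lower in WT T-ALL than in thymus and 0 were higher (median difference -1.41), where 22.3% of all genes were lower and 29.3% higher. Cd40lg, which licenses antigen-presenting cells, was 0.31 against 2.95 (difference -2.64, SE 0.22, limma adjusted p = 2.71e-09). It passed the filter on low values only through thymus, so it is no support for the counts of lower genes in either T-ALL group, which include it. Slamf1 was 2.66 against 4.65 (-1.99, SE 0.23, adjusted p = 4.13e-07). Tnfrsf9 (4-1BB) and Icos, induced on activated T cells, were lower by -1.58 and -1.14 (adjusted p = 0.000664 and 0.0123). In Notch3 KO T-ALL, where 16.3% of all genes were lower and 21.2% higher, 7 of 11 were lower and 1, Tnfrsf14, was higher (4.07 against 2.74, adjusted p = 0.00447; difference 0.96, adjusted p = 0.0507, without Notch3 KO T-ALL 2). Slamf6 and Cd2 did not pass in either comparison.

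**Figure D5:**
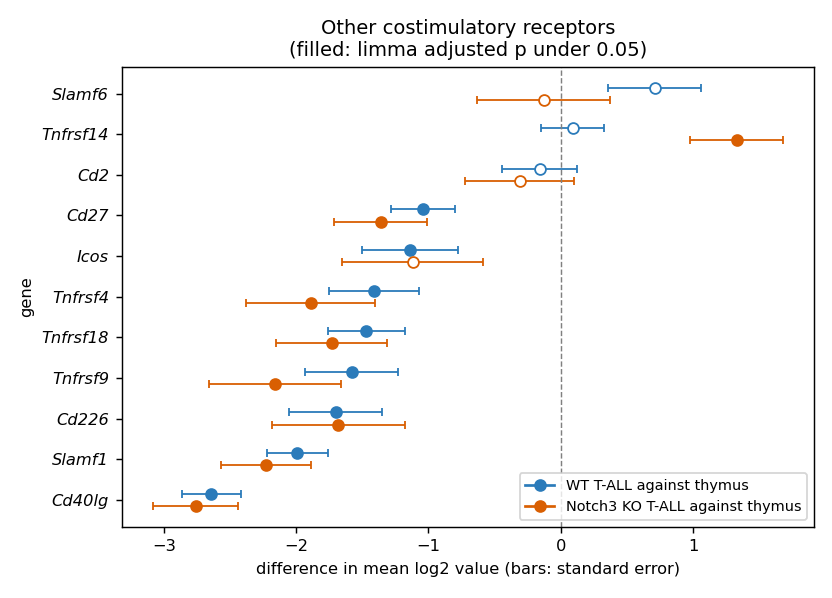
Difference from thymus in mean log2 value (horizontal axis, bars are the standard error) for 11 costimulatory receptors other than Cd28, in WT T-ALL (blue) and Notch3 KO T-ALL (orange); filled points have a limma adjusted p under 0.05. Cd40lg lies farthest to the left, at -2.64 and -2.76, and Tnfrsf14 is the only filled point on the right.

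Of the other inhibitory receptors, 13 were tested in both comparisons with thymus. In WT T-ALL 1 was higher and 5 were lower (median -0.21), and in Notch3 KO T-ALL 1 was higher and 2 were lower (median -0.47). Against the shares over all genes given above (22.3 and 16.3% lower, 29.3 and 21.2% higher), these counts were above the background for lower genes in WT T-ALL, near it for lower genes in Notch3 KO T-ALL and below it for higher genes in both. The riser was Cd160 in both, a receptor of HVEM found on NK and cytotoxic T cells, at 3.35 and 2.98 against 1.49 in thymus (limma adjusted p = 0.000165 and 0.0257). Cd5, which restrains antigen receptor signaling in thymocytes, was 4.75 and 4.45 against 6.61 (adjusted p = 1.7e-06 and 6.22e-05). Cd96 fell by 1.57 in WT T-ALL (adjusted p = 0.00552; 0.0598 with the thymus pairs averaged), and in Notch3 KO T-ALL its difference was -1.55 (adjusted p = 0.0604). Btla fell by 1.17 in WT T-ALL (adjusted p = 0.00761) and by 1.49 in Notch3 KO T-ALL (adjusted p = 0.0233; 0.0832 with the pairs averaged). In Notch3 KO T-ALL the call of Cd160 was lost without thymus 5 or Notch3 KO T-ALL 1 or 3 (differences 1.04 to 1.39, adjusted p 0.0522 to 0.188) and with the pairs averaged (adjusted p = 0.0853). That of Btla was lost without Notch3 KO T-ALL 2 (-0.95, adjusted p = 0.183) or 3 (-1.34, adjusted p = 0.103).

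Of the other ligands, 12 of 28 listed were tested. In WT T-ALL 3 were higher and 2 lower (median 0), and in Notch3 KO T-ALL 2 were higher and 2 lower (median 0.31). Of the higher genes Timd4 in both, Pvrl2 in WT T-ALL and Rgmb in Notch3 KO T-ALL passed the filter on low values only through T-ALL libraries, so the counts of higher genes are not read against all genes. Those of lower genes were near or below the shares over all genes (22.3% in WT T-ALL and 16.3% in Notch3 KO T-ALL). Pvr, a ligand of TIGIT, CD96 and CD226, was 2.81 in WT T-ALL and 2.85 in Notch3 KO T-ALL against 5.27 in thymus (limma adjusted p = 7.31e-08 and 3.16e-05). Its relative Pvrl2 was 0.97 against 0.12 in WT T-ALL (adjusted p = 0.0183; 0.056 within set B and 0.116 with the thymus pairs averaged), and Lgals3, which encodes galectin-3, was 4.06 against 2.61 (adjusted p = 0.0363; 0.156 with the pairs averaged). Pvrl2 was at or below 0.25 in all 6 controls. Cd200 was lower in both, by -0.86 and -1.02 (adjusted p = 0.0102 and 0.0413; 0.0831 and 0.122 with the pairs averaged). The call of Lgals3 was lost without thymus 2, 4, 5 or 6 or WT T-ALL 108 (differences 1.24 to 1.5, adjusted p 0.0502 to 0.0974), and that of Cd200 in Notch3 KO T-ALL without any of thymus 1, 2, 3, 4 and 6 or any of the 3 tumors (-1.08 to -0.98, adjusted p 0.0512 to 0.106). Timd4, a phosphatidylserine receptor of macrophages, was 2.72 in Notch3 KO T-ALL against 0.67 in thymus (adjusted p = 7.75e-05).

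Rgmb, which encodes a membrane protein that binds PD-L2, was the only gene of the 5 lists to pass the test between the T-ALL groups. Its values lay between 0.52 and 0.86 for thymus, between 0 and 1.02 for WT T-ALL and between 1.60 and 3.25 for Notch3 KO T-ALL. The 3 Notch3 KO T-ALL therefore lay above all other libraries, and Rgmb passed the filter on low values through them, so its p is no independent support. The difference from WT T-ALL was 1.88 (SE 0.31, limma adjusted p = 0.00543). It was 1.41 (adjusted p = 0.251) without Notch3 KO T-ALL 2, 1.96 (adjusted p = 0.127) within set A, and 1.88 (adjusted p = 0.263) by the exact permutation test. The 680 splits of the exact test allow no p below 0.00147, so no gene could have passed it after adjustment. Pdcd1lg2 itself was 0.28 to 0.49 in these 3 tumors.

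Of 16 tested transcription factors known to act on checkpoint genes, 2 were higher and 5 lower in each comparison with thymus (medians -0.39 and -0.54). Over all genes 29.3% were higher and 22.3% lower in WT T-ALL, and 21.2% and 16.3% in Notch3 KO T-ALL. With only 16 genes tested, departures of a few genes from these shares are not read as a result about the list. Of the higher genes Tox2 passed the filter on low values only through T-ALL libraries. Tox2, a factor of the TOX family, was 3.13 in WT T-ALL and 3.60 in Notch3 KO T-ALL against 0.78 in thymus (limma adjusted p = 1.19e-06 and 3.18e-05), while its relative Tox was lower in both (4.53 and 4.54 against 5.40, adjusted p = 0.00178 and 0.0327). Irf8 was higher in both, by 0.92 and 1.26 (adjusted p = 0.00524 and 0.0111, the former 0.0507 with the pairs averaged and 0.0934 within set B), the latter 0.85 (adjusted p = 0.126) without Notch3 KO T-ALL 1. Bcl6 was 2.82 and 2.95 against 5.64 (adjusted p = 1.4e-10 and 3.54e-07), and Nr4a3, a gene induced by antigen receptor signals, was 0.60 and 0.20 against 2.34 (adjusted p = 4.76e-06 and 7.68e-05), with an adjusted p of 0.132 within set A in WT T-ALL. Of 20 signaling and turnover molecules, 9 were lower in WT T-ALL, 8 in Notch3 KO T-ALL and 0 were higher (medians -0.51 and -0.52), more lower and fewer higher genes than the shares over all genes. Trat1, an adaptor that stabilizes the T cell receptor complex, fell by 1.54 in WT T-ALL (limma adjusted p = 0.00229; -1.91, adjusted p = 0.143, within set A). Cmtm6, whose product protects PD-L1 from degradation, was 4.15 and 4.01 against 5.25 (adjusted p = 1.41e-05 and 0.00043). Not every gene named from these lists was refitted within the sets, and Btla, Tnfrsf9, Icos, Tox and Cmtm6 in WT T-ALL were not. Among those that were, further calls lost within set A by limma were those of Cd96 (adjusted p = 0.12), Lgals3 (0.0905, and 0.12 within set B) and Cd200 (0.526) in WT T-ALL, and of Cd160 (0.0531), Btla (0.142) and Tnfrsf14 (0.0895) in Notch3 KO T-ALL. With the set as a term those of Btla (0.0756) and Cd200 (0.0587) in Notch3 KO T-ALL were lost.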

How the data were processed

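Unfractionated tissue was profiled by stranded mRNA sequencing in 6 thymus, 14 WT T-ALL and 3 Notch3 KO T-ALL libraries. The study's methods name the OSA aligner, with the mm10 transcriptome as target, and quantification in ArrayStudio. The values deposited by the authors are log2(RPKM + 1), where the 75th percentile of RPKM is 10 for every library, as read from the values. The table holds no counts, and the depth of each library is not given there. Groups were taken from the labels. The labels do not state that controls came from separate animals, so p-values measure the spread between libraries, which may be in part technical.

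Genes that reached a scaled RPKM of 1 or more in 3 or more fitted libraries entered limma 3.58.1 (R 4.3.3; lmFit and eBayes, trend and robust), with Benjamini-Hochberg adjustment over all genes tested and a threshold of 0.05. Both comparisons with thymus came from a fit of all 3 groups (11919 genes), and the comparison between tumors of both donor genotypes from a fit of the T-ALL groups alone (11677 genes). Two-sided exact permutation tests with full enumeration (38760, 84 and 680 assignments of the libraries) were an alternative. Correlations used 100000 permutations (two-sided; Python 3.11.15, NumPy 2.4.6). The fit and the correlations were tested on simulated data with known changes. Positions are from GENCODE M21 on GRCm38.p6, and promoters from RefSeq on the same assembly. Motifs were searched by exact letters.

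All 10 checkpoint genes are named. The 2 highest rises and 2 deepest falls among genes of each pathway list that passed the test are also named, and the 3 genes most like each checkpoint gene; Tnfrsf9, Icos, Tox, Cmtm6 in WT T-ALL, and Slamf6 and Cd2 were added after their values were seen. Some items that these rules name are not reported here. The genes, lists and tests were chosen with earlier results of these data known. Marker lists cover T cells, macrophages, dendritic cells, neutrophils, erythroid cells, B cells, NK cells, regulatory T cells, thymic epithelium, and endothelium with stroma. Erythroid markers (9 of 10 in the table) summed to 21.5–33.6, 102–1070 and 547–2410 for thymus, WT T-ALL and Notch3 KO T-ALL, and those of endothelium and stroma to 32.7–39.1, 29.6–130 and 41.2–62.7. Alternatives were an offset of 0.1, no filter, a filter at 5, quantile normalization, the exact test, a replicate block, and each library left out. The set of libraries, averaged thymus pairs and the fit without WT T-ALL 48 and 110 were added after seeing the data.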

Additional observations from a re-analysis of the deposited data

How the results depend on the processing

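The count of checkpoint genes passing the test against thymus in WT T-ALL was 3 with Cd80, which entered the test only through high tumors, 0 within set A, 1 within set B and 1 with the thymus pairs averaged, and it ran from 1 to 3 with each library left out (1 without thymus 6). For Notch3 KO T-ALL it was 3 as reported, 5 by the exact permutation test and 1 with the thymus pairs averaged, and 1 to 3 with each library left out (1 without Notch3 KO T-ALL 3). Between the T-ALL groups it was 0 in all 26 alternatives. For the exact permutation test this outcome was fixed, as its 680 splits allow no p below 0.00147. Even Rgmb, with all 3 Notch3 KO values above all WT T-ALL, had an adjusted p of 0.263 in it. Fewer libraries entered the fits within a set and with averaged pairs, so these have less power. Replicate numbers did not pair the libraries: same-numbered deviations from the group means correlated at -0.24, 0.09 and 0.13 for WT T-ALL and thymus and at 0.04, -0.03 and 0.15 for Notch3 KO T-ALL and thymus. With the replicate block the counts were 1 for WT T-ALL and 3 for Notch3 KO T-ALL, the latter with Lag3 (-1.09, limma adjusted p = 0.0237) in place of Cd86 (0.81, adjusted p = 0.063), and the T-ALL groups shared a single number, so no block could be fitted there.

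Cd28 was lower and kept its direction in all alternatives against thymus, as did Cd274. Directions of differences that had not passed the test turned in some. Under the block Tigit and Cd86 in WT T-ALL were 0.03 and -0.21 and Pdcd1 in Notch3 KO T-ALL was -0.10. Within set B Lag3 in WT T-ALL was 0.32. Ctla4 in Notch3 KO T-ALL was -0.13 with the offset of 0.1, -0.04 after quantile normalization and -0.04 with the set as a term, and Cd80 was -0.02 after quantile normalization. Between the T-ALL groups Havcr2 was -0.13 after quantile normalization, and Pdcd1 was 0.07 with the set as a term and within set A. The cause of these turns was not tested. With each library left out, Lag3 was -0.16 to 0.09 and Tigit -0.21 to 0.06 for WT T-ALL, Pdcd1 was -0.15 to 0.59 and Ctla4 -1.37 to 0.97 for Notch3 KO T-ALL, and between the T-ALL groups Havcr2 from -0.07 to 0.15, Pdcd1 from -0.61 to 0.13, Ctla4 from -2.27 to 0.07 and Cd28 from -0.52 to 0.13. Quantile normalization moved the median difference of all genes against thymus, 0.08 in both comparisons, to -0.01 (WT T-ALL) and -0.05 (Notch3 KO T-ALL). Lag3 in Notch3 KO T-ALL against thymus also passed the test with the offset of 0.1 (-1.86, limma adjusted p = 0.0344), after quantile normalization (-1.48, adjusted p = 0.0411) and within set A (-1.66, adjusted p = 0.0203).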
